A study of Rattus norvegicus with 32 samples.

Results

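The AP-1 transcription factors analysed here were the 8 genes Fos, Fosb, Fosl1, Fosl2, Jun, Junb, Jund and Atf3, found by symbol among the 32623 genes measured by RNA-seq in rat liver sinusoidal endothelial cells (LSECs), the fenestrated cells that line the liver capillaries. All 8 were present in the files and passed the filter on low counts in every comparison. LSECs came from 6 healthy rats and from rats that inhaled carbon tetrachloride (CCl4), a toxin whose repeated use scars the liver. The acute group received it for 2 weeks (5 rats), the fibrosis group for 6 weeks (5 rats) and the cirrhosis group for 12 to 14 weeks (6 rats), the last span being known from the design text. A second experiment, with the hepatotoxin thioacetamide (TAA), held 5 libraries labelled control and 5 labelled TAA control.

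The labels give Wistar Han as the strain of every library, whereas the design text gives Sprague-Dawley for the thioacetamide experiment. All rats were male, and those given CCl4 also drank phenobarbital, which raises the liver's conversion of the toxin. Cells were collected after liver perfusion, digestion and density-gradient centrifugation, several days after the last dose of toxin. Ages and dosing per library are not given in the labels. The labels do not settle which thioacetamide group received the toxin, so its values are given by label with no direction of disease. Each replicate is a library of its own, and the p-values measure the spread between these libraries.

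AP-1 is a dimer of basic leucine zipper proteins that binds the DNA site TGAGTCA. Fos proteins bind DNA with a Jun partner, whereas Jun proteins can also pair with each other and with ATF proteins. Fos, Fosb, Jun, Junb and Atf3 are immediate-early genes, whose short-lived mRNAs rise within minutes of growth factors, shear stress, inflammatory signals or the handling and enzymatic digestion of tissue. Fosl1 and Fosl2 encode Fra-1 and Fra-2, Fos relatives that lack the strong activation domain of Fos and Fosb and usually follow them later. The 8 genes were selected on earlier results of the CCl4 libraries, in which Fosb was strongly lower after injury. Comparisons with healthy LSECs, and of cirrhosis with fibrosis, are therefore given as a description with no test. Tests are given between fibrosis and acute injury, for the members other than Fosb, and between the thioacetamide groups.

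RefSeq's table for the assembly GRCr8 held a promoter for 5 of the 8 genes, from 250 bases before to 50 after the gene start. Fos, Jun and Atf3 had no entry. The sequences of Fosb, which had the largest difference between healthy and injured LSECs, of Junb and Jund, whose levels ran closest together, and of Fosl1, which ran the other way, are shown 5′ to 3′ on the gene's strand. Fosb lies at chr1:88089135-88089434, minus strand, Fosl1 at chr1:212183635-212183934, plus strand, Junb at chr19:40080876-40081175, plus strand and Jund at chr16:18769722-18770021, minus strand. Capitals mark a match to a searched motif.
Fosb: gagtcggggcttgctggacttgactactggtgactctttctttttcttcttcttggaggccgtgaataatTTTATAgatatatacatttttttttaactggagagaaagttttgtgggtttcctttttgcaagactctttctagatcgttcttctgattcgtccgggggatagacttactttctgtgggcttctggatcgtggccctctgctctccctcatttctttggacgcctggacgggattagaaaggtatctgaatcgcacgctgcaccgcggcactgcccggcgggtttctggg
Junb: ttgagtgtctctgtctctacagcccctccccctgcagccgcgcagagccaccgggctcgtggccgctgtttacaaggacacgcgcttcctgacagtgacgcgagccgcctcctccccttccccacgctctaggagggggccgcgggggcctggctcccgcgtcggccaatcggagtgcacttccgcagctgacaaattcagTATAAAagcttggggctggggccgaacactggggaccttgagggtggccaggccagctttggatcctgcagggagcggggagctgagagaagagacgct
Jund: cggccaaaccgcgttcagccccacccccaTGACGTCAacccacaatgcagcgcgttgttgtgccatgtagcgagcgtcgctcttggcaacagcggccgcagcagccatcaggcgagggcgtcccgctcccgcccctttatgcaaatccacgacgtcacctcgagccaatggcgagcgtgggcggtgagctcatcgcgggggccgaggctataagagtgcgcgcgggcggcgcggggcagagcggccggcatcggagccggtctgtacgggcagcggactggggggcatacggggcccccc
Fosl1: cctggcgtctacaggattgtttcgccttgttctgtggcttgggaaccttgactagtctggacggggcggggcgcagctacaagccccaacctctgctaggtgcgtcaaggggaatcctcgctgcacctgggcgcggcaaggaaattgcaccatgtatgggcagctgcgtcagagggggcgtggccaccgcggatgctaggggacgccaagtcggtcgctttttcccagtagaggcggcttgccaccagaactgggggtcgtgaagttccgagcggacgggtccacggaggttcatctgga

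Motifs were searched as exact letters on both strands. The AP-1 site TGAGTCA was in 4.63% of 33469 promoters of this length, the cyclic AMP response element (CRE) TGACGTCA in 1.83%, the TATA box TATAAA in 14.2% and the CArG box, the site of serum response factor, in 1.64%. Jund held the CRE, at -221 to -214 from the gene start. Junb held the TATA box at -49 to -44. Fosb held the TATA letters on the other strand, read as TTTATA at -180 to -175. The windows of Fosl1 and Fosl2 held none of these letters, and no window of the 5 held the AP-1 site or the CArG box. A match is a description of letters, and its absence says only that they are not in this window.

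Values are in CPM, the estimated reads of a gene per 1000000 reads of the library after TMM scaling. The 32 libraries held 25646501 to 46464271 reads, so even the lowest AP-1 value rested on 115 reads. LSEC identity was not equal across groups. The summed level of 9 LSEC markers was 14199 to 26194 CPM in healthy and 13151 to 17006 CPM in cirrhotic libraries, but 2253 to 2861 CPM in acute and 1612 to 2554 CPM in fibrosis libraries. Stab2, a scavenger receptor of LSECs, averaged 3482, 148, 179.7 and 3294 CPM in healthy, acute, fibrosis and cirrhosis libraries. Cdh5, the endothelial cadherin, was at 1293, 1597, 1039.7 and 1506 CPM in the same order. The 5 markers of endothelial cells in general, Cdh5 among them, summed to 4619 to 7787 CPM in healthy and 3804 to 4963 CPM in cirrhotic libraries. In acute and fibrosis libraries they summed to 2187 to 3490 and 1682 to 2145 CPM. Their median log2 fold change against healthy libraries was -0.63 in acute injury and -0.92 in fibrosis. Markers of hepatocytes (6 genes) summed to 701 to 17078 CPM in healthy and 86.7 to 777 CPM in acute libraries, and those of Kupffer cells and macrophages (8 genes) to 292 to 2860.0 and 71.3 to 215 CPM. In fibrosis and cirrhosis libraries the hepatocyte markers summed to 1024 to 4265 and 1614 to 10944 CPM. Those of Kupffer cells and macrophages summed to 30.2 to 189 and 681 to 2453 CPM. The 7 stellate cell markers summed to 282 to 782 CPM in healthy and 1313 to 2131 CPM in acute libraries, but Reln alone averaged 1678 CPM in the acute group. Of these 7 genes, 5 were called lower and 1, Reln, higher in acute injury, where 37.9% of all genes were called lower and 35.5% higher. Their median log2 fold change was -2.65, beside -0.09 for all genes. Col3a1 and Des averaged 223 and 9.26 CPM in health and 5.2 and 0.524 CPM in acute injury. The part of these other cells in the AP-1 values was not tested. In bulk RNA, fewer cells of a type and less RNA per cell cannot be told apart.

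**Figure D1:**
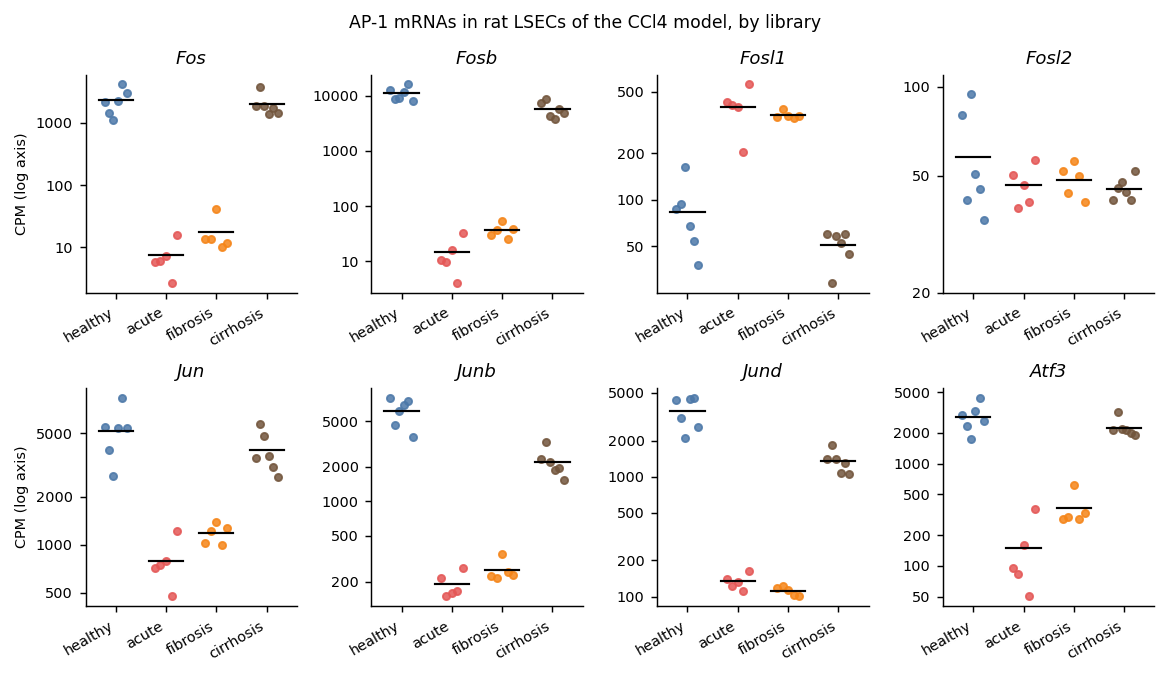
Level of each AP-1 mRNA (CPM, log axis) in the 22 libraries of the CCl4 model. Points are libraries and lines are group means. In all panels but those of Fosl1 and Fosl2 the acute and fibrosis points lie below every healthy and every cirrhosis point, and in Fosl1 they lie above.

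Fosb mRNA was abundant in healthy LSECs and far lower, though still detected in every library, after 2 weeks of CCl4. Fosb (ENSRNOG00000046667) encodes a Fos protein with a full activation domain. In healthy libraries it spanned 7966 to 15859 CPM, with a median of 10374 CPM. Acute replicates 1, 2, 3, 4 and 8 held 10.5, 9.89, 15.9, 4.05 and 32.6 CPM. Fibrosis replicates 12, 13, 15, 16 and 17 held 29.8, 36.5, 53.8, 25.8 and 38.1 CPM. Every injured library of these stages was thus below every healthy library, and replicate 8 was the highest of the acute group. Cirrhosis libraries were back at 3782 to 8573 CPM, with a median of 5223 CPM, and overlapped with the healthy range. The log2 fold change against healthy LSECs was -9.83 ± 0.410 in acute injury (standard error, SE), a 912-fold lower level, -8.16 ± 0.223 in fibrosis and -0.94 ± 0.236 in cirrhosis.

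Fos (ENSRNOG00000008015), the founding member of the family, had the same order of groups. Healthy libraries ranged from 1092 to 4141 CPM around a median of 2172 CPM. The acute replicates, in the same order, held 5.85, 5.94, 7.28, 2.65 and 15.9 CPM, and the fibrosis replicates 13.5, 13.4, 41.0, 9.96 and 11.5 CPM. Replicate 8 again led the acute group, and replicate 15 led the fibrosis group. Cirrhosis ranged from 1377 to 3749 CPM with a median of 1769 CPM, inside the healthy range. The log2 fold changes against healthy LSECs were -8.38 ± 0.445, -7.06 ± 0.405 and -0.17 ± 0.318 for acute injury, fibrosis and cirrhosis.

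Fosl1 (ENSRNOG00000020552) was the member that ran the other way. It ranged from 37.7 to 163 CPM in healthy libraries, with a median of 77.3 CPM. The acute replicates held 427, 410.2, 399, 204 and 558 CPM, and the fibrosis replicates 341, 387, 350.3, 339 and 349.9 CPM. Every library of both stages exceeded every healthy library, and the spread in fibrosis was narrow, at 353 ± 19.2 CPM (SD, n = 5). In cirrhosis the range was 28.9 to 60.0 CPM with a median of 55.4 CPM, which overlapped with healthy libraries. Its log2 fold changes against healthy LSECs were 2.37 ± 0.350 (5.18-fold higher), 2.30 ± 0.295 and -0.60 ± 0.318. Fosl2 (ENSRNOG00000052357), which encodes Fra-2, held a narrow band. Its 22 values ran from 35.4 to 94.2 CPM, both extremes being healthy libraries, and all 4 groups overlapped. Its means were 57.8 ± 23.8, 46.5 ± 7.10, 48.4 ± 6.15 and 45.2 ± 4.02 CPM (SD, n = 6, 5, 5 and 6). Neighbours in this order thus differed by less than the larger of their SDs. With library size alone as scaling, its log2 fold changes against healthy LSECs, -0.19 ± 0.251 in acute injury, -0.10 ± 0.246 in fibrosis and -0.25 ± 0.231 in cirrhosis, turned to 0.21, 0.29 and 0.09.

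All 3 Jun genes were lower in acute injury and fibrosis, by unequal amounts. Jun (ENSRNOG00000026293), which activates transcription in most dimers, kept the most. Its healthy range was 2709 to 8353 CPM (median 5385 CPM). The acute replicates held 715, 744, 795, 474 and 1226 CPM, and the fibrosis replicates 1031, 1226, 1398, 992 and 1272 CPM. Cirrhosis libraries ranged from 2669 to 5731 CPM with a median of 3559.7 CPM. Both injured stages lay below every healthy and every cirrhosis library, while cirrhosis overlapped with health. The log2 fold change against healthy LSECs was -2.66 ± 0.291 in acute injury and -0.37 ± 0.261 in cirrhosis, and the level in fibrosis was 3.99-fold lower, with a standard error of 0.242 on the log2 scale.

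Junb (ENSRNOG00000042838), often a weaker activator that tempers Jun, was lower by a larger factor. Healthy libraries held 3628 to 7991 CPM (median 6550.1 CPM), and cirrhosis libraries 1527 to 3296 CPM (median 2078 CPM). The acute replicates held 215, 148, 159, 165 and 262 CPM, and the fibrosis replicates 225, 213, 349, 241 and 229.7 CPM. Its log2 fold changes were -4.96 ± 0.230, -4.52 ± 0.215 and -1.47 ± 0.236. Jund (ENSRNOG00000019568), usually the steadily expressed Jun gene, was at 2089.6 to 4550.5 CPM in healthy libraries (median 3708 CPM) and 1053 to 1824 CPM in cirrhosis (median 1362 CPM). The acute replicates held 141, 124, 131, 112 and 162 CPM, and the fibrosis replicates 117, 123, 113, 102.3 and 100.4 CPM. Its log2 fold changes were -4.63 ± 0.220, -4.86 ± 0.208 and -1.34 ± 0.223. Of the 8 genes, Junb and Jund were the 2 in which even every cirrhosis library lay below every healthy library.

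The 3 Jun genes have no introns, so their levels could be set per kilobase of gene, with lengths of 3094, 1785 and 1679 bases for Jun, Junb and Jund from the GRCr8 table, an assembly other than the Rnor_6.0 used for the counts. In healthy LSECs Junb was at 3439.7 ± 953, Jund at 2093 ± 631 and Jun at 1681 ± 611 CPM per kilobase (SD, n = 6). In acute injury the order was Jun at 256 ± 88.2, Junb at 106 ± 26.7 and Jund at 79.8 ± 11.3 CPM per kilobase (SD, n = 5). Fibrosis gave 383 ± 54.9, 141 ± 31.1 and 66.2 ± 5.70 CPM per kilobase in that order. In cirrhosis Jun and Junb stood side by side, at 1260.5 ± 373 and 1231 ± 340.2 CPM per kilobase, with Jund at 803 ± 168. By mean, Jun was the lowest of the 3 in the healthy group of the CCl4 model and the highest in both injured stages. Jun overlapped with both Jund and Junb in healthy libraries. In the thioacetamide experiment Jun had the highest mean under both labels, and the 3 genes overlapped. Jun, Junb and Jund averaged 761, 727 and 722 CPM per kilobase under the label control. Under the label TAA control they averaged 2743, 2269 and 1994 CPM per kilobase.

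Atf3 (ENSRNOG00000003745), a stress-induced protein of the ATF family that pairs with Jun proteins, was intermediate. Healthy libraries ranged from 1730.4 to 4420.2 CPM (median 2799.8 CPM) and cirrhosis libraries from 1901 to 3189 CPM (median 2135 CPM). The acute replicates held 95.7, 82.9, 162, 50.3 and 358 CPM, and the fibrosis replicates 286, 304, 625, 287 and 329.5 CPM. Acute and fibrosis libraries were below all healthy libraries, and replicates 8 and 15 were again the highest of their groups. The log2 fold changes against healthy LSECs were -4.52 ± 0.432, -2.93 ± 0.261 and -0.31 ± 0.212.

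**Figure D2:**
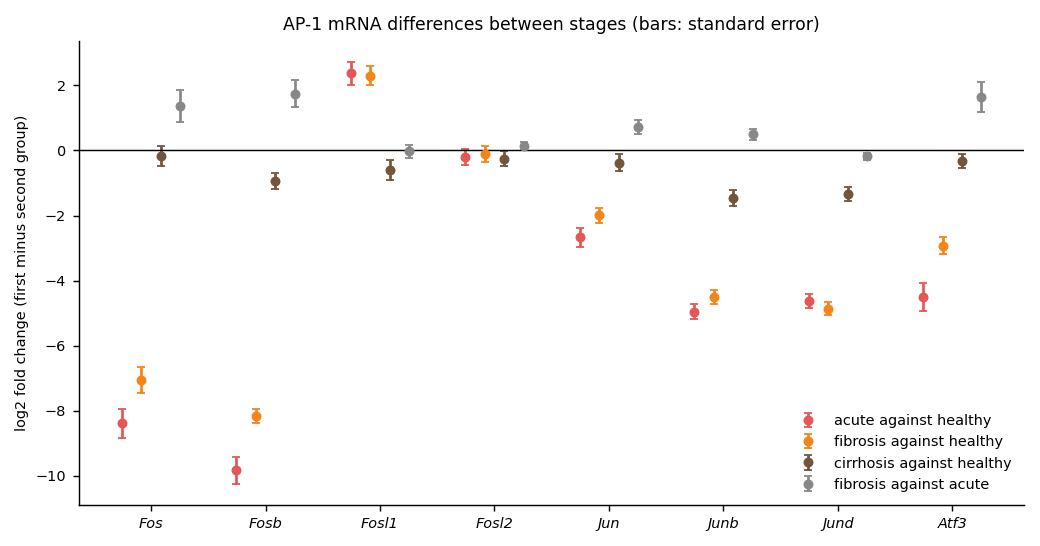
Log2 fold change of each AP-1 mRNA (points) with its standard error (bars) from limma-voom, for acute injury, fibrosis and cirrhosis against healthy LSECs and for fibrosis against acute injury. Fosb spans -9.83 in acute injury to -0.94 in cirrhosis, Fosl1 stands above 0 in acute injury and fibrosis, and Fosl2 stays near 0.

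By count, 6 of the 8 genes were lower and 1 was higher with no overlap between acute and healthy libraries, and the same counts were obtained for fibrosis. The background was high. Of 14317 genes tested in acute injury, 30.8% were lower and 29.2% higher with no overlap, and 37.9% and 35.5% were called lower and higher at an adjusted p-value under 0.05 with a fold-change above 1.5. In fibrosis, 29.1% and 29.6% of 14538 genes were lower and higher with no overlap, and 34.9% and 35.3% were called. Cirrhosis left 2 members lower with no overlap, Junb and Jund, and 6 overlapping, where 17% and 10.1% of 14789 genes were lower and higher with no overlap and 24.7% and 27.1% were called. The median log2 fold change of the 8 members was -4.57 in acute injury, -3.72 in fibrosis and -0.49 in cirrhosis, beside -0.09, -0.03 and 0.07 for all genes tested. With library size alone as scaling, the median of all genes moved to 0.32, 0.37 and 0.42. The genes called higher and lower then went from 5131 and 5079 to 6239 and 4003 in fibrosis, and from 4002 and 3658 to 5724 and 2303 in cirrhosis. Under that scaling the log2 fold changes of Fos and Atf3 in cirrhosis turned to 0.18 and 0.03. The members were chosen with these contrasts known, so nothing is read from the counts.

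Set against fibrosis, cirrhosis libraries were higher with no overlap in the 6 members that had been low, and lower in Fosl1. Fosb differed by 7.27 ± 0.231 and Fos by 6.96 ± 0.351 on the log2 scale, followed by Jund at 3.58 ± 0.127, Junb at 3.10 ± 0.182, Atf3 at 2.66 ± 0.214 and Jun at 1.68 ± 0.181. Fosl1 differed by -2.85 ± 0.178. Fosl2 overlapped, at -0.10 ± 0.094. Of 15186 genes, 30.8% were higher and 32.5% lower with no overlap in this comparison, and 34.3% and 29.5% were called. All 8 Kupffer cell and macrophage markers were called higher in it, with a median log2 fold change of 4.14. So were 8 of 9 LSEC markers, 5 of 6 hepatocyte markers and 5 of 7 stellate cell markers, of which 1 was called lower. Their part in the AP-1 values was not tested. The order of the stages was the same in Fos, Fosb, Jun, Junb and Atf3, with health highest, then cirrhosis, fibrosis and acute injury by mean.

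The pool of AP-1 mRNA differed between stages in make-up as well as in size. All 8 genes together took 2.53 ± 0.689% of the reads of a healthy library (SD, n = 6), 0.188 ± 0.0501% in acute injury and 0.264 ± 0.0339% in fibrosis (SD, n = 5 each), and 1.82 ± 0.540% in cirrhosis (SD, n = 6). In health, Fosb contributed 35.2%, Junb 19.96%, Jun 16.5% and Fosl1 0.302% of the pool. In acute injury Jun contributed 45.6%, Fosl1 23.1% and Fosb 0.760%. In fibrosis Jun contributed 50.1% and Fosl1 15.2%, and Atf3 contributed 15.1% against 7.73% in acute injury. Cirrhosis returned to 32.6% Fosb and 22.4% Jun, with Fosl1 at 0.311%. These are shares of reads, not per length, so they compare a gene between stages and not genes with each other.

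**Figure D3:**
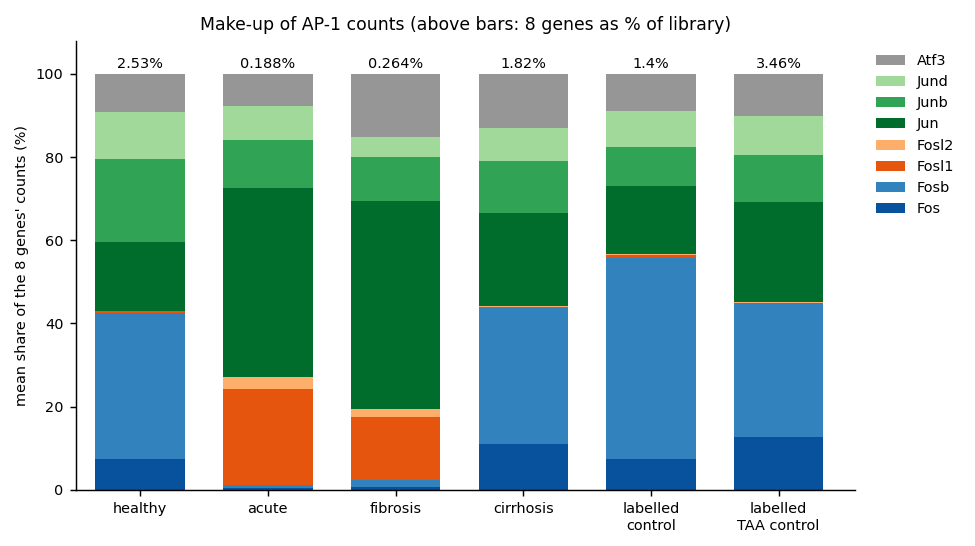
Mean share of each gene in the summed reads of the 8 AP-1 genes (percent, stacked bars) in the 6 groups, with the pool as a percentage of the library above each bar. Fosb fills 35.2% of the healthy bar and 0.760% of the acute bar, where Jun fills 45.6% and Fosl1 23.1%.

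The contrast between 2 and 6 weeks of CCl4 was not used to choose the 7 genes tested in it. Of the 7 members tested, 2 were called higher in fibrosis and none lower, against 10.2% higher and 0.732% lower of 13931 genes. Atf3 rose by 1.64 ± 0.460 on the log2 scale (3.12-fold, adjusted p = 0.0309 from limma-voom) and Jun by 0.71 ± 0.209 (1.64-fold, adjusted p = 0.0371 from limma-voom). In both genes the 5 acute and 5 fibrosis libraries overlapped, since acute replicate 8 reached 358 CPM of Atf3 and 1226 CPM of Jun. Fos had a larger difference than Jun but a wider spread, 1.37 ± 0.482 (adjusted p = 0.0669 from limma-voom). Junb, at 0.49 ± 0.177, Jund, at -0.18 ± 0.10, Fosl2, at 0.14 ± 0.121, and Fosl1, at -0.03 ± 0.210, did not pass, with adjusted p-values from limma-voom of 0.0715, 0.219, 0.421 and 0.927. Fosb, given with no test, differed by 1.75 ± 0.415. The calls depended on the setting. edgeR's quasi-likelihood test called 0 of the 7, a single fit over the 4 CCl4 groups called 1, and DESeq2 called 3. At an unadjusted p-value under 0.05 limma-voom called 3 higher, Fos being the third, and 0 lower. Leaving out acute replicate 8 gave 4 calls, leaving out acute replicate 3 or fibrosis replicate 17 gave 1, and leaving out any other of the 10 libraries gave 0. Markers of other cells moved in the same comparison. The 6 hepatocyte markers were all called higher in fibrosis, with a median log2 fold change of 3.005 and sums of 1024 to 4265 CPM against 86.7 to 777 CPM in acute injury, and 5 of 7 stellate cell markers and 3 of 9 heat-shock genes were called higher. Their part in the AP-1 values was not tested.

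Within groups, the genes tended to be high or low in the same libraries. Acute replicate 8 was the highest of its group in all 8 genes and acute replicate 4 the lowest in 6. Fibrosis replicate 15 was the highest in 6, and cirrhosis replicate 2 in 6 while being the lowest in Fosl1. Healthy replicate 5 led in 5 genes, and healthy replicate 3 was lowest in 4 but highest in Fosl1 and Fosl2. The summed level of 15 other immediate-early genes was also highest in acute replicate 8 at 2961 CPM, in cirrhosis replicate 2 at 17688 CPM, in healthy replicate 5 at 27522 CPM and in fibrosis replicate 15 at 2831 CPM. The sum of 9 heat-shock genes was highest in acute replicate 8 too, at 4941 CPM, whereas cirrhosis replicate 2 had the lowest heat-shock sum of its group, 8381 CPM in a range up to 30873 CPM. Which step of handling or biology these libraries share was not tested.

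The thioacetamide experiment held libraries that the selection did not use. In the group labelled TAA control 6 of the 8 members were called higher, and 1, Fosl1, lower, with no overlap, against 12.7% called higher and 14.9% called lower of 14376 genes. Fos held 1180.3, 1863, 1448, 506 and 523 CPM in replicates 1 to 5 under the label control, and 3466, 4127, 4858, 4816 and 4803 CPM in replicates 10, 12, 13, 14 and 15 under the label TAA control. Its log2 fold change was 2.18 ± 0.364 (4.52-fold, adjusted p = 0.000723 from limma-voom). Replicates 4 and 5 were the 2 lowest of the first group, as they were in Fosb, Jun, Junb, Jund and Atf3. Jun held 2769.8, 3327, 3052, 1299.9 and 1323 CPM in the first group and 6076, 6722, 9005, 10308 and 10321 CPM in the second, a log2 fold change of 1.93 ± 0.306 (adjusted p = 0.000538 from limma-voom). Fosb, which had the largest difference across the CCl4 stages, had the smallest of the 6 here, 6554 ± 1350.3 against 11245 ± 1784 CPM (SD, n = 5 each) and a log2 fold change of 0.79 ± 0.160 (adjusted p = 0.00223 from limma-voom).

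Fosl1 again ran against the others. It held 52.8, 51.3, 74.4, 120.1 and 93.0 CPM in the group labelled control and 26.5, 37.6, 21.5, 44.8 and 43.2 CPM in the group labelled TAA control. The log2 fold change was -1.16 ± 0.273 (adjusted p = 0.00502 from limma-voom), and replicates 4 and 5, low in Fos and Jun, were its 2 highest values. Junb rose by 1.66 ± 0.239, Atf3 by 1.55 ± 0.251 and Jund by 1.48 ± 0.226 on the log2 scale, with adjusted p-values from limma-voom of 0.000308, 0.000587 and 0.000431. Fosl2 overlapped and was not called, at -0.24 ± 0.108 (adjusted p = 0.0836 from limma-voom). The pool was 1.40 ± 0.387% of reads in the group labelled control and 3.46 ± 0.595% in the other (SD, n = 5 each). The 7 calls held under every other setting tried, including the omission of each library in turn, and with replicates 14 and 15, which lie closer than any other pair, counted as 1 library. Beside these genes, the 7 stellate cell markers summed to 2057 to 5089 CPM in the group labelled control and 342 to 535 CPM in the group labelled TAA control. The 6 hepatocyte markers summed to 1459 to 3946 and 438 to 1080.5 CPM, with 4 called lower and a median log2 fold change of -1.48. All 3 cholangiocyte markers tested were called lower, where 14.9% of all genes were. The 15 other immediate-early genes summed to 4864 to 10338 and 18850.0 to 27122 CPM. Heat-shock sums overlapped, at 1943 to 9146 and 4708 to 8619.5 CPM. Their part in the AP-1 values was not tested.

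**Figure D4:**
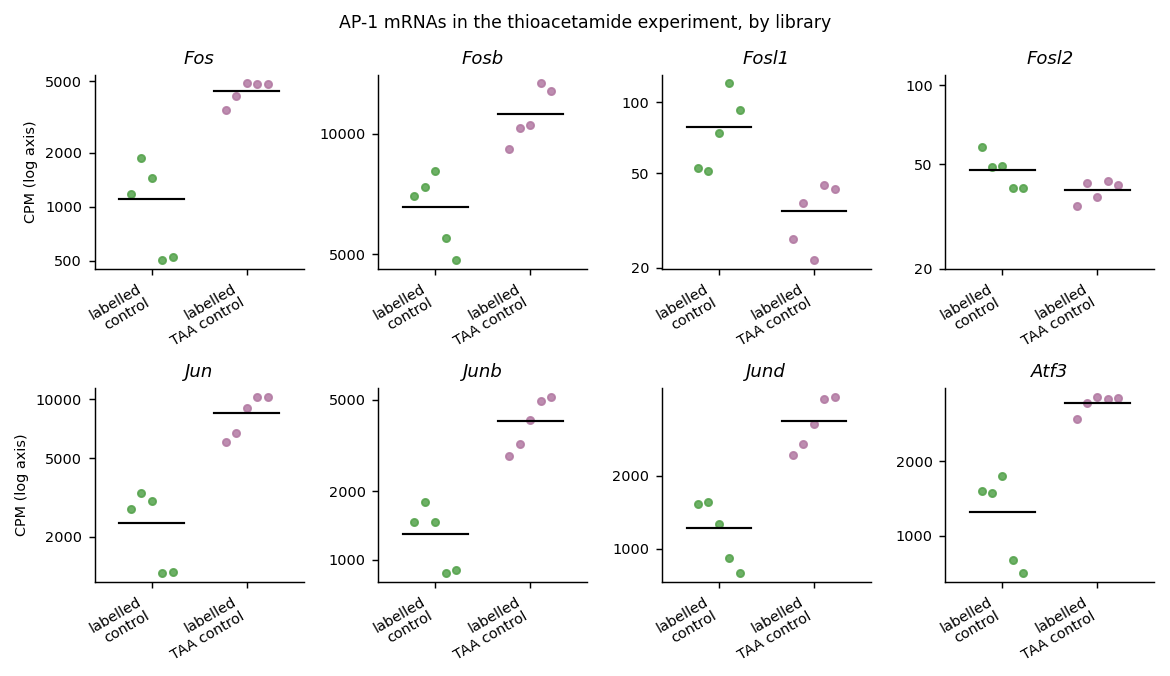
Level of each AP-1 mRNA (CPM, log axis) in the 10 libraries of the thioacetamide experiment, by label. Points are libraries and lines are group means. The groups are apart in all panels but that of Fosl2, with Fosl1 the only gene lower in the group labelled TAA control.

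Partners of AP-1 outside the 8 genes were tested in every comparison. Of 11 other basic leucine zipper proteins that pair or compete with Fos and Jun, 7 fell and 2 rose in acute injury. Their median log2 fold change was -1.11 beside -0.09 for all genes, of which 37.9% were called lower and 35.5% higher. Batf2, which competes with Fos for Jun, fell from 46.7 ± 16.3 CPM (SD, n = 6) in health to 1.51 ± 0.434 CPM (SD, n = 5), and Maf, a large Maf protein, from 118 ± 78.8 to 8.35 ± 2.86 CPM. Mafk, a small Maf protein, fell by 1.85 on the log2 scale. In fibrosis 4 fell and 2 rose, with a median of -0.43, where 34.9% of all genes were called lower and 35.3% higher. In cirrhosis 4 fell and 0 rose, but the median was 0.03 beside 0.07 for all genes, of which 24.7% were called lower. Maf was at 129 ± 18.8 CPM in cirrhosis (adjusted p = 0.350 against health from limma-voom).

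The MAP kinase cascade, which phosphorylates Jun and the factors on the Fos promoter, moved in both directions. Of 16 genes tested in acute injury, 6 rose and 7 fell, with a median of -0.20, where 35.5% of all genes were called higher and 37.9% lower. Map2k4, an activator of the Jun kinases, rose from 9.75 to 39.9 CPM, while Map2k6 and Map3k8 fell by 3.55 and 2.95 on the log2 scale and Mapk11 fell from 46.0 to 4.92 CPM. Serum response factor, its partners and CREB gave 2 genes higher and 2 lower of 7, Creb1 (2.08) and Elk4 (1.75) against Elk3 (-2.32) and Mkl1 (-1.31) on the log2 scale. Of 6 genes for turnover of Fos and Jun, 3 rose and 3 fell. The largest fall was in Zfp36, which encodes tristetraprolin, a protein that speeds decay of short-lived mRNAs, from 12790.4 ± 3018 to 106 ± 46.2 CPM (log2 fold change -6.93 ± 0.261), given with no p-value because it was named for its change in this comparison. Rfwd2 and Itch, ubiquitin ligases that act on Jun, rose by 1.77 ± 0.231 and 1.31 ± 0.289. In the thioacetamide groups, Zfp36 was higher under the label TAA control, by 1.48 ± 0.260 (adjusted p = 0.000964 from limma-voom).

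Genes listed in textbooks as AP-1 targets moved in both directions. Of 20, 10 rose and 6 fell in acute injury, 11 rose and 4 fell in fibrosis, and 7 rose and 2 fell of 17 tested in cirrhosis. Their medians were 1.02, 1.52 and 0.63, beside -0.09, -0.03 and 0.07 for all genes tested. Of all genes, 35.5% and 37.9% were called higher and lower in acute injury, 35.3% and 34.9% in fibrosis and 27.1% and 24.7% in cirrhosis. The 10 that rose in acute injury include Mmp13, Mmp3, Mmp10 and Spp1. These passed the filter on low counts through the injured libraries, so nothing is read from the counts or medians. The collagenase and stromelysin genes Mmp13, Mmp3 and Mmp10 were near 0 in health, and no healthy library held more than 0.287 CPM of any of them. In acute injury they averaged 91.3 ± 86.1, 138 ± 96.2 and 35.9 ± 28.4 CPM (SD, n = 5), and in fibrosis 94.5 ± 25.2, 143 ± 38.2 and 37.0 ± 9.68 CPM. All 3 were below 1 CPM again in every cirrhosis library. Spp1, osteopontin, was at 0.380 ± 0.139 CPM in health (SD, n = 6) and 79.5 ± 29.6 CPM in acute injury (SD, n = 5). In the thioacetamide groups 3 targets were called higher and 11 lower of 17 under the label TAA control, with a median of -1.32. In that comparison 12.7% of all genes were called higher and 14.9% lower, with a median of 0.03.

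**Figure D5:**
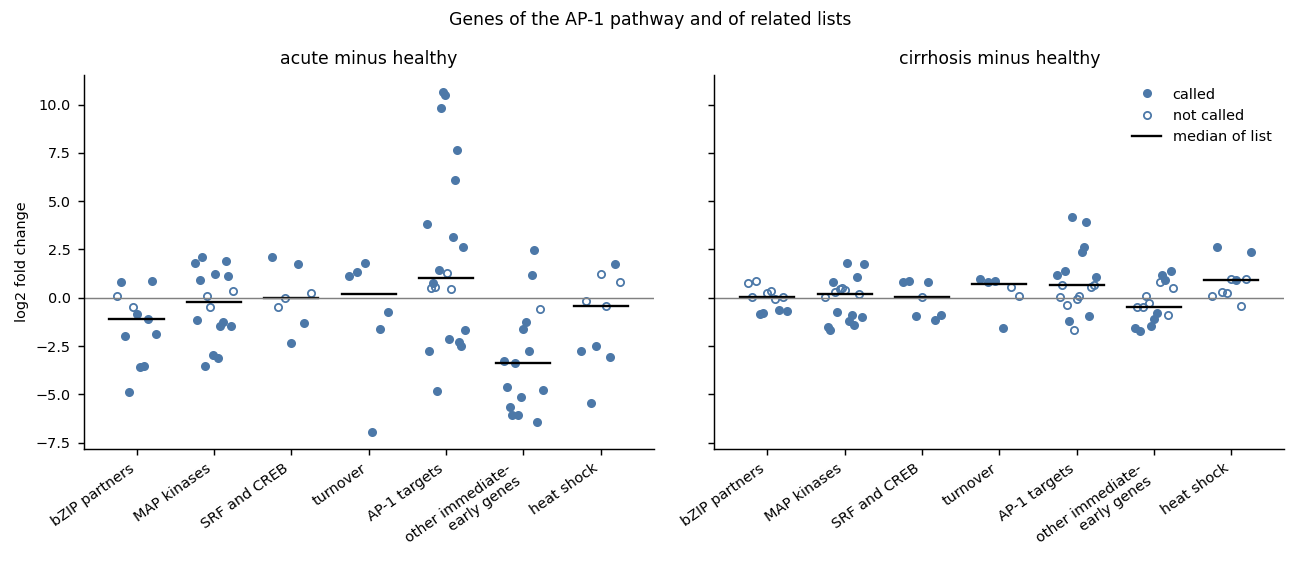
Log2 fold change of single genes (points, filled where called) in 7 lists for acute injury and for cirrhosis against healthy LSECs, with the median of each list as a line. In acute injury the other immediate-early genes have a median of -3.37 and the AP-1 targets 1.02, beside -0.09 for all genes tested. The target median includes Mmp13, Mmp3, Mmp10 and Spp1, which passed the filter through the injured libraries. The lists were chosen with earlier results known, so nothing is read from these medians.

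A list of 15 other immediate-early genes was described in the same way. Of these 15 genes, 12 fell and 2 rose in acute injury and in fibrosis, and 5 fell and 3 rose in cirrhosis. The shares of all genes called lower and higher were 37.9% and 35.5% in acute injury, 34.9% and 35.3% in fibrosis. In cirrhosis they were 24.7% and 27.1%. The list was chosen with earlier results of these data known, so nothing is read from its counts. Egr1, a zinc finger factor, was at 5236 ± 1731, 74.6 ± 19.1, 72.2 ± 21.3 and 3789 ± 1540.4 CPM in health, acute injury, fibrosis and cirrhosis (SD, n = 6, 5, 5 and 6). The heat-shock list, whose genes rise with tissue dissociation, holds 8 symbols and 9 genes because Hspa8 stands for 2 entries. Its summed level was 5793 to 16475 CPM in health, 925 to 4941 in acute injury, 3854 to 6745 in fibrosis and 8381 to 30873 in cirrhosis. Of its 9 genes, 4 were called lower and 1 higher in acute injury, and 3 lower and 2 higher in fibrosis. Their median log2 fold changes were -0.41 and -0.007, and nothing is read from these counts. Hspa1a, an inducible chaperone, averaged 5517, 249, 369.9 and 6632 CPM in health, acute injury, fibrosis and cirrhosis. Its near-identical copy Hspa1b, with which its reads may be split, averaged 2897, 989, 2561 and 3353 CPM in the same order. The part of dissociation in the AP-1 values was not tested.

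The genes whose profile lay closest to each member were found among 8277 by the root-mean-square difference of centred log2 CPM over the 22 CCl4 libraries. Closest to Fos was Apold1, an endothelial early response gene, at a difference of 0.57, where Fos itself had a standard deviation of 3.99. Apold1 fell from 2028 ± 186 CPM in health to 12.3 ± 11.1 CPM in acute injury and stood at 1599 ± 498 CPM in cirrhosis. Fosb was closest to Eln, elastin, at 0.84, then to Islr and Apold1. Junb and Jund shared Ier2, an immediate-early gene, at 0.22 and 0.27, Jun was closest to Fzd8 at 0.32 and Atf3 to Timp3 at 0.49. Fosl1 was closest to Bin1 at 0.36, and Fosl2 to Clk3 at 0.21. In the 10 thioacetamide libraries the same measure gave 0.93 for Fos and Apold1, 0.32 for Junb and Ier2, 0.83 for Fosl1 and Bin1 and 1.07 for Jun and Fzd8. Among the members, Junb and Jund were the closest pair in both experiments, at 0.35 and 0.13.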

How the data were processed

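RNA from rat LSECs was sequenced as 32 poly(A) libraries made with a stranded kit. Per the labels and the study's methods, the authors trimmed reads with Trim Galore, checked them with FastQC, aligned them with STAR to Rnor_6.0 and counted genes with RSEM. The versions of these tools are not given in the sources used here. The values deposited by the authors are RSEM expected counts per gene, of which 10.3% to 12.4% per library were not whole. They were rounded. Totals ran from 25646501 to 46464271 reads per library, and small counts carry counting error.

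Groups followed the labels. Low counts were filtered with filterByExpr, TMM factors were computed in edgeR 4.0.16 and each pair of groups was fitted with limma-voom (limma 3.58.1, R 4.3.3). Genes were called at a Benjamini-Hochberg adjusted p-value under 0.05, over all genes tested, with a fold-change above 1.5. Errors of log2 fold changes are standard errors. The CCl4 and thioacetamide libraries were scaled apart. edgeR's quasi-likelihood test, DESeq2 1.42.0, other scalings, filters and fits, and the omission of each library were tried. The procedure was tested on simulated data. Figures were drawn with matplotlib 3.10.9.

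The members and lists were chosen with earlier results of these data known. Named were all members, from each pathway list up to 4 genes called in acute injury with the largest change and a mean of at least 10 CPM, and for each member the 3 genes of nearest profile with a mean log2 CPM of at least 3. Log2 CPM used a pseudocount of 0.5. Mmp13, Mmp3, Mmp10 and Spp1, near 0 in health, are given by level. A gene that this rule names is not reported here.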

Additional observations from a re-analysis of the deposited data

Results flagged for a closer look

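Of 48 sets of values (8 genes in 6 groups), 6 held a library far from the rest of its group by Dixon's test, where chance alone gives about 1 in 20. In fibrosis, replicate 15 stood above the others in Fos at 41.0 CPM, where the next library had 13.5 CPM, in Junb at 349 CPM against 241 CPM and in Atf3 at 625 CPM against 329.5 CPM. Fibrosis replicate 13 stood out in Fosl1 at 387 CPM, where the next had 350.3 CPM. In cirrhosis, replicate 2 stood above the others in Fos at 3749 CPM, with 1897 CPM next, and in Atf3 at 3189 CPM, with 2175 CPM next. Fibrosis replicate 15 and cirrhosis replicate 2 were also the libraries of their groups with the highest sum of other immediate-early genes, 2831 and 17688 CPM.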

How the results depend on the processing

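Of 1016 recomputed log2 fold changes of members, 976 counted as unchanged. For members with a test this means the same direction and the same side of the threshold. For those given with no test it means the same direction and a shift smaller than the standard deviation within groups. With library size alone, those of Fosl2 turned to 0.21, 0.29 and 0.089 in acute injury, fibrosis and cirrhosis against health, and those of Fos and Atf3 in cirrhosis to 0.18 and 0.033. Without 1 library at a time, Fosl2 ranged from -0.28 to 0.0093 in acute injury and from -0.28 to 0.043 in fibrosis, Fos in cirrhosis from -0.39 to 0.013, and Fosl1 between fibrosis and acute injury from -0.25 to 0.11.

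Between fibrosis and acute injury, 1529 genes were called, 2826 with no fold threshold, 2346 with library quality weights, 746 in a single fit over the 4 CCl4 groups, and 1011 (without acute replicate 1) to 2166 (without acute replicate 8) without 1 library. The members called went from 2 to 0 with edgeR, to 1 in the single fit, and from 0 to 4 without 1 library. The cause was not tested. In the thioacetamide experiment, 3970 genes were called and 7139 with no fold threshold. Replicates 14 and 15 there differed by 3.05 in chi-square per degree of freedom, above sampling noise, where the next closest pair of any group gave 25.2. Whether replicates 14 and 15 came from different rats was not tested. Counting them as 1 library, an alternative chosen after seeing the data, gave 3902 genes and 7 members.

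Libraries of healthy and CCl4 groups that shared a replicate number were weakly related, with correlations of 0.04 to 0.15 for acute injury and -0.21 to 0.23 for cirrhosis. Acute replicates 2 and 4 and cirrhosis replicate 2 correlated best with the healthy library of their own number, and the others did not. Whether the number marks a shared batch was not tested. With the replicate number as a block, 10945 genes were called in acute injury against 10502, and 7335 in cirrhosis against 7660, and Fosb differed by -10.10 and -0.94 on the log2 scale. No paired analysis was possible because no replicate numbers were shared in the other comparisons.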
